A study of Mus musculus with 8 samples.

Results

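The 10 genes described here encode chains of type IV collagen (Col4a1 to Col4a6) and of type VI collagen (Col6a1, Col6a2, Col6a3 and Col6a6). They were taken by name from the 22180 genes with a single-gene row on the array, and each is represented by its brightest row over the 8 arrays. All 10 were measured. Their levels were recorded in mesenchymal cells sorted from lungs of 11-week-old C57BL/6J mice kept free of specific pathogens. Control mice had received PBS and the others bleomycin through the trachea, with 4 arrays of each kind. On day 10 the cells negative for the leukocyte antigen CD45, the endothelial CD31 and the epithelial EpCAM were collected by flow cytometry. This gate keeps fibroblasts, pericytes and smooth muscle together, so each value is an average over a mixture, in which fewer cells of a type and less RNA per cell cannot be told apart. Whether replicates are separate animals is not in the labels, so p-values reflect only how far these samples spread, which could be technical.

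Type IV collagen forms the sheet-like network of basement membranes. Its chains wind into helical trimers inside the cell: the products of Col4a1 and Col4a2 assemble together in nearly all basement membranes, those of Col4a3, Col4a4 and Col4a5 in specialised ones such as that of the alveolus, and those of Col4a5 and Col4a6 in others, smooth muscle among them. In the lung, Col4a3 and Col4a4 are known as genes of alveolar type 1 epithelium. Type VI collagen, made largely by fibroblasts, forms beaded microfibrils that link basement membranes to the interstitial matrix, and its main trimer holds the products of Col6a1, Col6a2 and Col6a3. The Col6a6 chain can stand in for that of Col6a3.

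The type IV genes lie next to each other in pairs (Col4a1 with Col4a2, Col4a3 with Col4a4, Col4a5 with Col4a6) in the RefSeq annotation of GRCm38.p6, as do Col6a1 and Col6a2, with no other protein-coding gene between the members of a pair. RefSeq promoter windows, from 250 bases before to 50 bases after a start site, were at hand for 9 members, and Col6a2 had 2 of them. Those of Col4a1 (minus strand, chr8:11312777-11313076) and Col4a2 (plus strand, chr8:11312555-11312854) are shown because these genes changed most among the higher members and start from the same stretch. Their start sites lie 21 bases apart on opposite strands. The windows share 78 bases, given in capitals, which read as reverse complements of each other.
Col4a1: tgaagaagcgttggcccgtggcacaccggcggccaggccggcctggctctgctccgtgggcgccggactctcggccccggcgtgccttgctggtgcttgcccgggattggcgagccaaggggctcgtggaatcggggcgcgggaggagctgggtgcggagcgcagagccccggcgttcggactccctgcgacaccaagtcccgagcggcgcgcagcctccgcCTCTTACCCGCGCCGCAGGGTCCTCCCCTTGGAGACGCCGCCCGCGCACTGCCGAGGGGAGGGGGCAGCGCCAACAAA
Col4a2: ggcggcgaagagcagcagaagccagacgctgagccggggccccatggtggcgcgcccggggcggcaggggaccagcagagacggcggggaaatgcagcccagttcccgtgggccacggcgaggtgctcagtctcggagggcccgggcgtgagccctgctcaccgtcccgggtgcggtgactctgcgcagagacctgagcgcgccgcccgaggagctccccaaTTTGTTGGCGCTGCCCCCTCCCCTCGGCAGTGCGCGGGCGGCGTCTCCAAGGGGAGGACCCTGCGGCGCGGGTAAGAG

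The 2 windows hold 74% and 73.7% G and C, against a median of 52.7% over 32851 windows of the same length. Searched on both strands, the letters CCAAT began 145 bases before the start site of Col4a1, in reverse, and 32 bases before that of Col4a2. The letters GGGCGG lie once in the shared stretch, where the same match begins 9 bases after the Col4a1 start and 7 bases after the Col4a2 start. The Col4a2 window holds 2 more, beginning 192 and 48 bases before its start. Over all windows CCAAT was found in 37.4% and GGGCGG in 35.7%, and over the 10 windows of members in 3 and 7.

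The windows of Col6a1 (minus strand, chr10:76725995-76726294) and Col6a2 (minus strand, chr10:76623355-76623654) are shown because these neighbours share a trimer but, unlike the Col4a1 pair, no start region. The Col6a2 window shown is the one farther from Col6a1. Capitals mark matches to the letters searched.
Col6a1: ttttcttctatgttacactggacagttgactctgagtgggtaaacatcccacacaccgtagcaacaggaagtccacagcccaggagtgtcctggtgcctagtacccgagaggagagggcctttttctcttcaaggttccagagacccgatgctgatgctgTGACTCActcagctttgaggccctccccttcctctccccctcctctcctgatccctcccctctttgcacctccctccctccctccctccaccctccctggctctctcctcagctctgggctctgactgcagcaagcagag
Col6a2: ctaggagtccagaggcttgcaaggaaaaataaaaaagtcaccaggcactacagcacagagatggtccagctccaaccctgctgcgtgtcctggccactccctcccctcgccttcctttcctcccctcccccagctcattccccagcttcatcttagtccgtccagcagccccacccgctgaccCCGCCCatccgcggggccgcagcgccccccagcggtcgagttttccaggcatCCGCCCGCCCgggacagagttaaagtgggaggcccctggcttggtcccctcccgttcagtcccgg

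Of the 10 member windows, 1, that of Col6a1, held TGANTCA, which 7.81% of all windows hold. The match begins 90 bases before the start. The Col6a2 window held GGGCGG in reverse beginning 67, 15 and 11 bases before its start, the latter 2 overlapping. The letters CAGACA and TATAAA were in 0 of the member windows, against 21% and 13.6% of all windows. These matches describe letters in the sequence and were not tested for binding.

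In the bleomycin arrays Col4a1, Col4a2, Col6a2 and Col6a3 were higher and Col4a3 and Col4a4 were lower, while Col4a5, Col4a6, Col6a1 and Col6a6 did not pass the test. The test was limma's moderated comparison of the groups, with p-values adjusted by Benjamini-Hochberg over all 22180 genes and a threshold of 0.05. Over all tested genes, 9.12% were called higher and 8.24% lower, or 17.4% in either direction, against 4 and 2 of these 10. The groups did not overlap in 7 of the 10 members and in 23.5% of all genes. The median log2 difference was 0.15 over the members and 0.03 over all genes. A log2 difference of 1 is a doubling, and the level of a gene is its deposited log2 intensity.

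**Figure D1:**
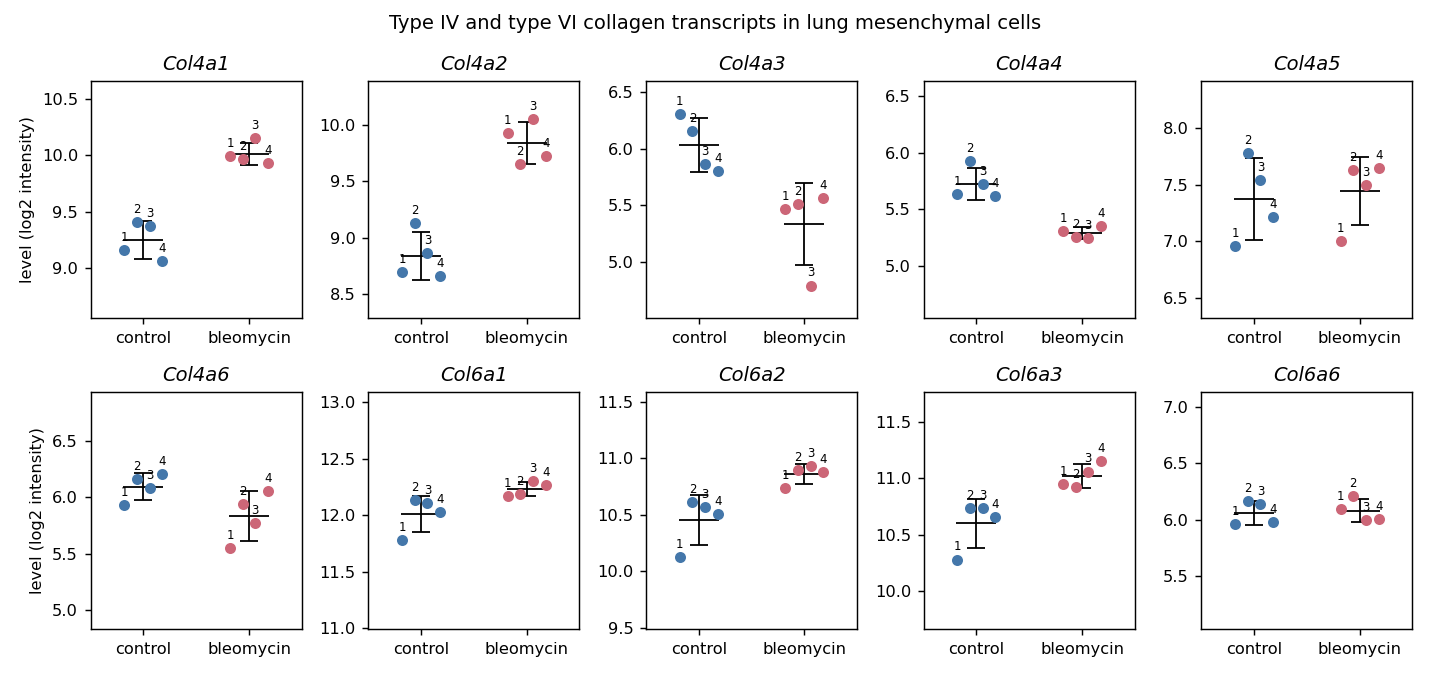
Level (log2 intensity, every panel spanning the same height) of the 10 collagen genes on each control (blue) and bleomycin (red) array, numbered by replicate, with the mean and SD of 4 arrays. Col4a1 and Col4a2 separate the groups by about 0.52, Col4a3 and Col4a4 lie lower in bleomycin arrays, and control replicate 1 is the lowest array for Col6a1, Col6a2 and Col6a3.

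Col4a1 and Col4a2, whose products form the general basement membrane network, rose most. Col4a1 stood at 9.16, 9.40, 9.37 and 9.06 on control replicates 1 to 4 and at 9.99, 9.97, 10.15 and 9.93 on bleomycin replicates 1 to 4. All bleomycin arrays lay above all control arrays, with a gap of 0.52 between the groups. The mean went from 9.25 ± 0.17 to 10.01 ± 0.10 (SD, n = 4 each), a log2 difference of 0.76 ± 0.10 (SE) or 1.69-fold (95% interval 1.44 to 1.98; limma adjusted p = 0.000815). Col4a2 stood at 8.70, 9.13, 8.87 and 8.66 in controls and at 9.93, 9.65, 10.05 and 9.72 after bleomycin. Again no bleomycin array reached down to the controls, and replicate 2 was the highest control and the lowest bleomycin array. The mean rose from 8.84 ± 0.21 to 9.84 ± 0.19, by 1.0 ± 0.13 or 2.0-fold (95% interval 1.64 to 2.45; limma adjusted p = 0.000632).

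Both calls held with each array left out in turn, with log2 differences of 0.70 to 0.81 for Col4a1 and 0.93 to 1.10 for Col4a2. Replicates 1 and 2 stand apart from replicates 3 and 4 in both groups on the second principal component of all genes. Within replicates 3 and 4 Col4a1 differed by 0.82 and did not pass (limma adjusted p = 0.0583), and within replicates 1 and 2 Col4a2 differed by 0.88 and did not pass (limma adjusted p = 0.0508). Each of those fits has 2 arrays a group.

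Smooth muscle and pericytes are among the cells in the gate that make type IV collagen. Of 9 smooth muscle markers 7 rose, and the list mean was 7.04 to 7.32 on control and 7.91 to 8.67 on bleomycin arrays. Myh11 and Synpo2 did not pass, differing by 0.25 and 0.08 (limma adjusted p of 0.221 and 0.663). Of 10 pericyte markers 3, Cspg4 among them, rose and 2, Abcc9 and Higd1b, fell, with list means of 7.05 to 7.39 and 7.26 to 7.45. Blood endothelium, which also makes Col4a1 and Col4a2 and should be removed by the gate, gave markers that fell in 12 of 14 cases, with list means of 7.73 to 8.76 in controls and 6.91 to 7.38 after bleomycin. In this mixture a rise of the smooth muscle markers in smooth muscle cannot be told apart from a rise in fibroblasts or other cells of the gate. The part of these cell types, or of fibroblasts, in the rise of Col4a1 and Col4a2 was not tested.

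Col4a3 and Col4a4, the alveolar chains, fell. Col4a3 stood at 6.31, 6.16, 5.86 and 5.81 on control replicates 1 to 4 and at 5.47, 5.51, 4.79 and 5.57 on bleomycin replicates 1 to 4. The groups did not overlap, and bleomycin replicate 3 was far below the rest. The mean went from 6.03 ± 0.24 to 5.33 ± 0.36 (SD, n = 4 each), a log2 difference of -0.70 ± 0.18 or 1.63-fold lower (limma adjusted p = 0.0236). Col4a4 stood at 5.64, 5.93, 5.72 and 5.62 in controls and at 5.31, 5.25, 5.25 and 5.35 after bleomycin. Its bleomycin arrays lay close together and all below the controls. The mean went from 5.73 ± 0.14 to 5.29 ± 0.05, a log2 difference of -0.43 ± 0.09 or 1.35-fold lower (limma adjusted p = 0.00937). Rows without an annotated gene had medians of 4.44 to 4.52 on control and 4.20 to 4.35 on bleomycin arrays. Taken row by row, the median difference between the groups over these rows was -0.06. Col4a3 and Col4a4 thus sit not far above the dim end of the array, which itself lay lower in the bleomycin group, and the size of their differences is uncertain. The part of that shift in the fall of these genes was not tested.

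The Col4a3 call was lost without control replicate 1, at -0.61 (limma adjusted p = 0.0666), or without control replicate 2, at -0.66 (limma adjusted p = 0.0619). Without both of these controls Col4a3 differed by -0.50 and Col4a4 by -0.38, and neither passed (limma adjusted p of 0.19 and 0.0597).

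Markers of alveolar type 1 epithelium, cells the EpCAM gate is meant to take out, were lower after bleomycin as well. Of 10 such markers 9 fell and 1, Pdpn, which fibroblasts also express, rose. The list mean was 9.22, 9.05, 8.58 and 8.58 on control replicates 1 to 4 and 7.94, 7.78, 7.49 and 8.06 on bleomycin replicates 1 to 4. Alveolar type 2 markers fell in 10 of 11 cases, with list means of 8.53 to 9.76 in controls and 6.87 to 7.76 after bleomycin. The type 1, type 2 and blood endothelium lists were all highest on control replicates 1 and 2 and lowest on bleomycin replicate 3, the arrays that hold the highest and lowest values of Col4a3. The pattern is thus not particular to the type 1 list. Col4a4 followed the pattern only in part. It was highest on control replicate 2 and lowest on bleomycin replicate 3, but control replicate 1 was among its lower controls and its bleomycin arrays were nearly level. No marker was at 0 on any array, but neither was any value of the whole table, the lowest being 0.24. The lack of a 0 therefore does not show that a marker was present. Rows without an annotated gene had medians of 4.44 to 4.52 on control arrays. The lowest control means of the type 1, type 2 and endothelium lists lay above these, at 6.14 (Hopx), 7.11 (Etv5) and 6.34 (Sox17). The brightest of them was Sftpc, at 12.08, so transcripts of cell types outside the gate were measured in the controls. The part of epithelial RNA in the fall of Col4a3 and Col4a4 was not tested.

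**Figure D2:**
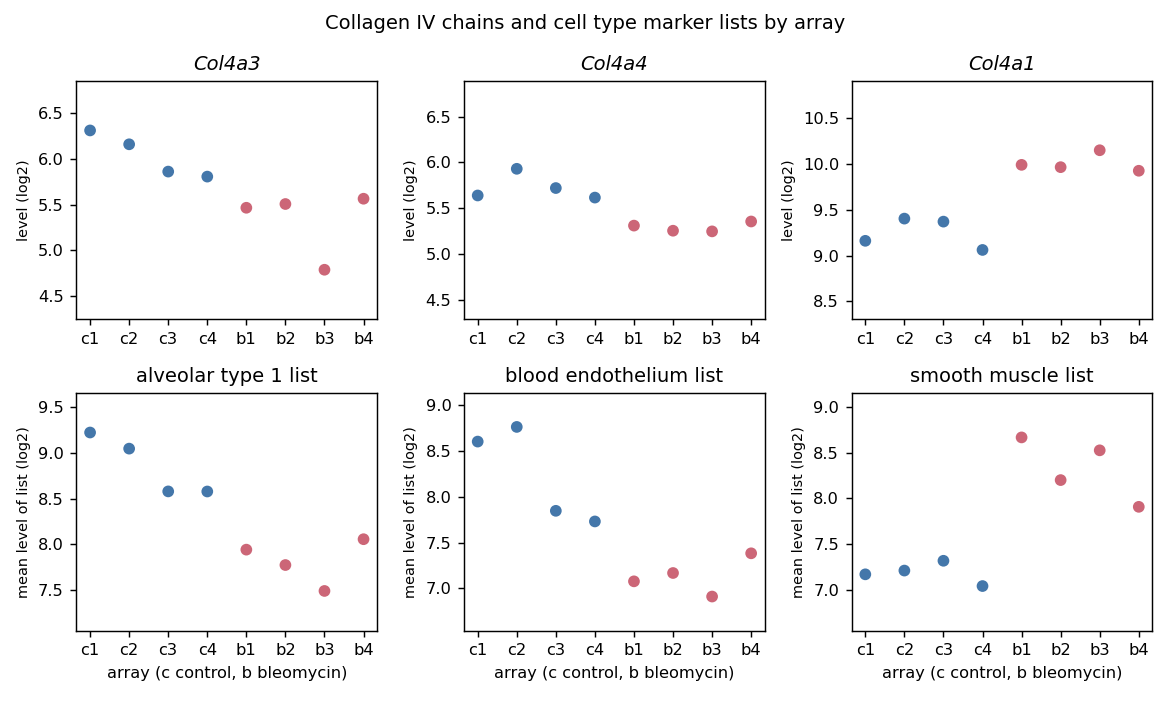
Level (log2) of Col4a3, Col4a4 and Col4a1 on each array and, below, the mean level (log2) of 3 marker lists on the same arrays, control in blue and bleomycin in red, with all panels spanning the same height. Col4a3, the alveolar type 1 list and the blood endothelium list are all highest on control replicates 1 and 2 and lowest on bleomycin replicate 3, as was the alveolar type 2 list, not drawn, while Col4a1 and the smooth muscle list lie higher on all bleomycin arrays.

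Col4a5 and Col4a6, the pair on the X chromosome, did not pass. Col4a5, the chain shared by the alveolar and smooth muscle trimers, stood at 6.95, 7.78, 7.54 and 7.21 in controls and at 7.0, 7.63, 7.50 and 7.65 after bleomycin. Replicate 1 was the lowest array of both groups, and the groups overlapped over most of their range. The log2 difference was 0.07 ± 0.19 (95% interval -0.36 to 0.51; limma adjusted p = 0.841), which leaves room for a change of up to 1.42-fold upwards. It was -0.07 without control replicate 1. Col4a6 stood at 5.93, 6.16, 6.08 and 6.20 in controls and at 5.55, 5.94, 5.77 and 6.06 after bleomycin. Bleomycin replicates 1 and 3 lay below all controls, but the groups overlapped. The log2 difference was -0.26 ± 0.12 (95% interval -0.53 to 0.0048; limma adjusted p = 0.171).

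Col6a2 and Col6a3 rose by a smaller amount than Col4a1 and Col4a2. Col6a2 stood at 10.13, 10.61, 10.56 and 10.50 on control replicates 1 to 4 and at 10.74, 10.90, 10.93 and 10.88 on bleomycin replicates 1 to 4. The groups did not overlap, and control replicate 1 stood below the other controls. The mean rose from 10.45 ± 0.22 to 10.86 ± 0.09 (SD, n = 4 each), by 0.41 ± 0.12 or 1.33-fold (limma adjusted p = 0.0348). Col6a3, the largest chain of the trimer, stood at 10.28, 10.74, 10.73 and 10.65 in controls and at 10.95, 10.93, 11.06 and 11.15 after bleomycin. Control replicate 1 was again lowest, and all bleomycin arrays lay above all controls. The mean rose from 10.60 ± 0.22 to 11.02 ± 0.11, by 0.42 ± 0.12 or 1.34-fold (limma adjusted p = 0.0329).

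These 2 calls lay near the threshold. Without control replicate 1 Col6a2 differed by 0.30 and Col6a3 by 0.31, and neither passed (limma adjusted p of 0.0664 and 0.0653). Leaving out 1 array at a time ended the Col6a2 call in 6 of 8 cases, all but control replicate 2 and bleomycin replicate 1, with adjusted p up to 0.0863. It ended the Col6a3 call in 5 of 8 cases, namely control replicates 1 and 4 and bleomycin replicates 1, 3 and 4, with adjusted p up to 0.0787. The differences stayed between 0.30 and 0.46 for Col6a2 and between 0.31 and 0.47 for Col6a3. Centring each array on its median gave 0.36 and 0.37 and ended both calls (limma adjusted p of 0.0584 and 0.0547).

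Col6a1, the third chain of that trimer, stood at 11.78, 12.14, 12.11 and 12.03 in controls and at 12.17, 12.19, 12.31 and 12.27 after bleomycin. The groups did not overlap, but the gap between them was 0.03, and control replicate 1 was the lowest array. The log2 difference of 0.22 ± 0.10 (95% interval 0.0018 to 0.44; limma adjusted p = 0.161) did not pass. A second, dimmer row of Col6a1 differed by 0.46 ± 0.22 and did not pass either (limma adjusted p = 0.19 over all 23521 single-gene rows), with bleomycin replicates 3 and 4 at 8.54 and 8.38 inside the control range of 8.13 to 8.74.

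Col6a6 did not pass. It stood at 5.96, 6.17, 6.14 and 5.98 in controls and at 6.10, 6.21, 6.00 and 6.00 after bleomycin. The groups lay on top of each other, with a log2 difference of 0.02 ± 0.09 (95% interval -0.19 to 0.22; limma adjusted p = 0.922). The sign of this difference was negative with median centring and without control replicate 1. Col6a4 and Col6a5, the other genes of the family on the array and not members here, differed by 0.30 and 0.37 and did not pass (limma adjusted p of 0.169 and 0.212 over all single-gene rows).

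**Figure D3:**
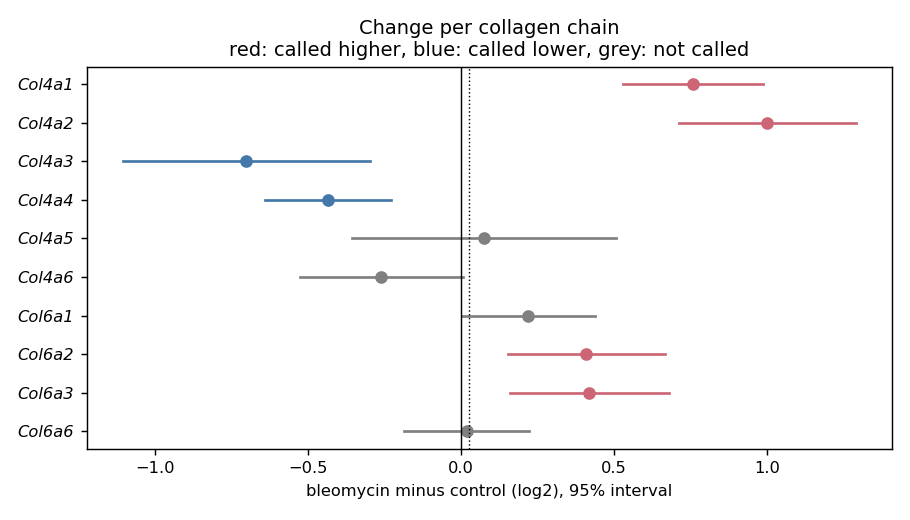
Log2 difference between bleomycin and control arrays (horizontal axis) for each collagen gene, as a point with its 95% interval from limma, coloured by the call, with the dotted line at the median of all genes (0.03). Col4a2 is farthest to the right at 1.0 and Col4a3 farthest to the left at -0.70.

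Whether chains changed unequally was asked on each array, by the difference in log2 level between 2 genes, which was then compared between the groups with a two-sided exact permutation test. Of 8 pairs examined, 0 passed after Benjamini-Hochberg adjustment. In 4 the groups did not overlap and the exact permutation p was 0.0286, the smallest that 4 against 4 arrays allow, or 0.0571 adjusted. Limma on the same differences, added after seeing the data, called 2, and 3 with the replicate number as a block. Whether the numbers pair the samples is not in the labels.

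Col4a1 against Col4a3 shifted most, by 1.46 (95% interval 0.98 to 1.94). The within-array difference was 3.21 ± 0.27 in controls and 4.68 ± 0.46 after bleomycin. Col4a1 against Col6a1 shifted by 0.54 (95% interval 0.32 to 0.75), from -2.77 ± 0.15 to -2.23 ± 0.08. Both were called by limma without a block (adjusted p of 0.000347 and 0.000847). With the second row of Col6a1, described above, Col4a1 against Col6a1 shifted by 0.30 and the exact permutation test gave an adjusted p of 0.571. With the brightest row of each gene, every bleomycin array lay above every control array in both pairs.

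Among partners in a trimer the shifts were smaller. Col6a1 against Col6a2 shifted by -0.19 (95% interval -0.37 to -0.01) and Col6a1 against Col6a3 by -0.20 (95% interval -0.38 to -0.02). With the second row of Col6a1 these shifts became 0.05 and 0.04, so their direction depends on the row. Col6a2 against Col6a3 shifted by -0.01 (95% interval -0.20 to 0.18, exact permutation p = 0.83). The SD of this difference was 0.02 over the control arrays and 0.11 over the bleomycin arrays (n = 4 each).

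Col4a1 against Col4a2, which start from the same stretch, shifted by -0.24 (95% interval -0.45 to -0.04; exact permutation p = 0.0571, or 0.0914 adjusted). Col4a3 against Col4a4 shifted by -0.27 (95% interval -0.65 to 0.12; exact permutation p = 0.4). Col4a5 against Col4a6 shifted by 0.34 (95% interval 0.0090 to 0.66; exact permutation p = 0.143, or 0.19 adjusted). Limma did not call it (adjusted p = 0.06) unless the replicate number, which is not known to pair the samples, was a block (adjusted p = 0.0445).

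**Figure D4:**
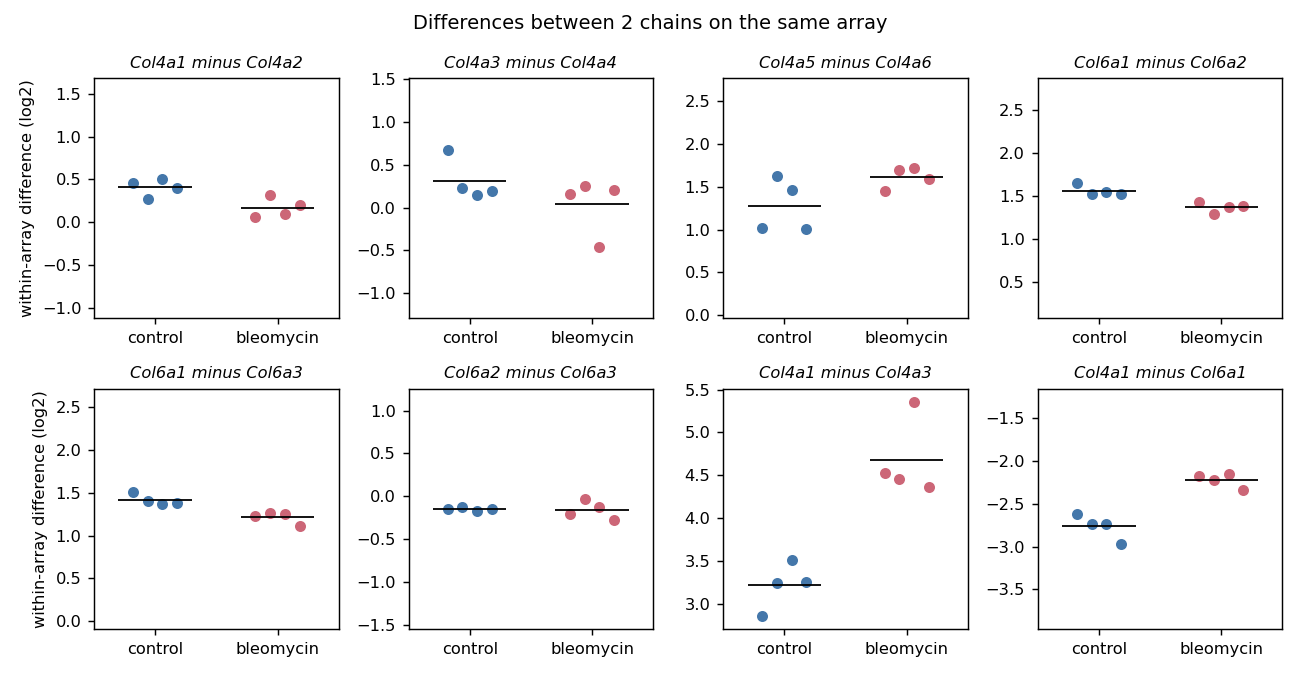
Difference in log2 level between 2 collagen genes on the same array (vertical axis, same height in every panel) for control (blue) and bleomycin (red) arrays, with the mean of 4 arrays as a line. Col4a1 minus Col4a3 moves from a mean of 3.21 to 4.68, while Col6a2 minus Col6a3 stays at -0.15 and -0.16.

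The genes whose levels followed a member most closely were read from Pearson's r over the 8 arrays, as a description, since all points share the difference between the groups. For Col4a1 they were Fstl1, a secreted follistatin-like protein (r = 0.997), the complement-activating protease Masp1 (r = 0.995) and the collagen-degrading protease Ctsk (r = 0.99). Col4a2 came at rank 14 of 22179 other genes (r = 0.986). For Col6a1 they were the gelatinase Mmp2 (r = 0.981), the predicted gene Gm17250 (r = 0.975) and the transporter gene Slc5a11 (r = 0.974). Its trimer partners Col6a2 and Col6a3 followed at ranks 4 and 5 (r of 0.973 and 0.972). With each group's mean removed, Col6a2 and Col6a3 ranked 7 and 8 for Col6a1 (r of 0.96 and 0.959) and Col4a2 ranked 90 for Col4a1 (r = 0.864).

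For Col4a3 the closest genes were the myosin gene Myh14 (r = 0.99), the transcription factor gene Dach1 (r = 0.985) and the protocadherin gene Pcdh12 (r = 0.985). Its neighbour Col4a4 came at rank 1117 (r = 0.807), and at rank 5429 with the group means removed (r = 0.314).

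Collagen chains reach the matrix through enzymes and chaperones of folding and export, and 15 of these were measured. Of these 15 genes 8 rose and 0 fell, with a median log2 difference of 0.38, against 0.03 over all genes. P4ha3, a catalytic subunit of prolyl 4-hydroxylase, went from 7.15 ± 0.36 to 11.03 ± 0.53 (SD, n = 4 each), by 3.88 ± 0.25. P3h1, a prolyl 3-hydroxylase, rose by 1.02 ± 0.13. The collagen galactosyltransferase Colgalt1 rose by 0.57 ± 0.12. The collagen chaperone Serpinh1 differed by 0.38 ± 0.15 and did not pass (limma adjusted p = 0.112).

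Of 16 other basement membrane genes 5 rose and 3 fell, with a median of 0.23. Pxdn, the peroxidase that links type IV collagen trimers by sulfilimine bonds, went from 8.55 ± 0.16 to 9.62 ± 0.28 (n = 4 each), by 1.07 ± 0.14 (limma adjusted p = 0.000718). Nid2, a nidogen that joins the laminin and collagen networks, rose by 1.06 ± 0.15 and the basement membrane collagen Col15a1 by 1.0 ± 0.11. The laminin chains Lamc3 and Lama3 fell by 0.90 and 0.55, Lama3 being an epithelial laminin whose call was lost in 5 of 8 fits that left out 1 array. The brighter laminin genes Lamb1 and Lamc1 differed by -0.07 and -0.01 and did not pass. Lama4, at a level similar to theirs, differed by -0.32 and was called lower (limma adjusted p = 0.0464). The laminin chain Lama5 rose by 0.93 ± 0.13.

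Of 9 genes whose products bind type VI collagen or its microfibrils 4 rose and 3 fell, with a median of 0.11. The proteoglycans Fmod and Lum rose by 1.19 ± 0.14 and 0.83 ± 0.12 and the matrilin Matn2 by 0.93 ± 0.11. Tenascin X, Tnxb, fell from 10.05 ± 0.16 to 8.91 ± 0.49 (n = 4 each), a difference of -1.14 ± 0.21, and Tgfbi fell by 0.86 ± 0.12.

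Of 10 receptors of these collagens 3 rose and 2 fell, with a median of 0.295. Cspg4, the proteoglycan NG2 that binds type VI collagen and marks pericytes, went from 5.66 ± 0.22 to 7.04 ± 0.43 (n = 4 each), by 1.37 ± 0.20. The hyaluronan receptor Cd44 rose by 0.93 ± 0.10. Itgb1, the common beta subunit of the collagen-binding integrins, rose by 0.30 ± 0.08, a call that ended in 7 of 8 fits with 1 array left out. The integrin subunit gene Itga3 fell by 0.95 ± 0.16 and the type VI collagen receptor Antxr2 by 0.57 ± 0.11. Itga1 and Itga2, the alpha subunits that bind type IV and other collagens, differed by 0.35 and 0.81 and did not pass (limma adjusted p of 0.299 and 0.0501).

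Of 9 proteases and inhibitors of matrix turnover 4 rose and 2 fell, with a median of 0.42. The inhibitor Timp1 rose from 9.13 ± 0.08 to 11.33 ± 0.32 (n = 4 each), by 2.20 ± 0.15. The gelatinase Mmp9, which cleaves type IV collagen, rose by 1.86 ± 0.19 and the macrophage elastase Mmp12 by 1.84 ± 0.16. Leukocytes, which the CD45 gate should remove, gave markers that rose in 4 of 9 cases and fell in 0, with list means of 6.58 to 6.88 in controls and 6.82 to 7.13 after bleomycin. The gene of CD45, Ptprc, and the lysozyme gene Lyz2 differed the other way, by -0.48 and -0.57, and did not pass (limma adjusted p of 0.0529 and 0.0951). The part of leukocytes in Mmp9 and Mmp12 was not tested. The stromelysin Mmp3 fell by 0.52 ± 0.12 and the matrix-bound inhibitor Timp3 by 0.33 ± 0.08, the latter call being lost in 4 of 8 fits with 1 array left out. The gelatinase Mmp2 differed by 0.42 and did not pass (limma adjusted p = 0.0774).

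**Figure D5:**
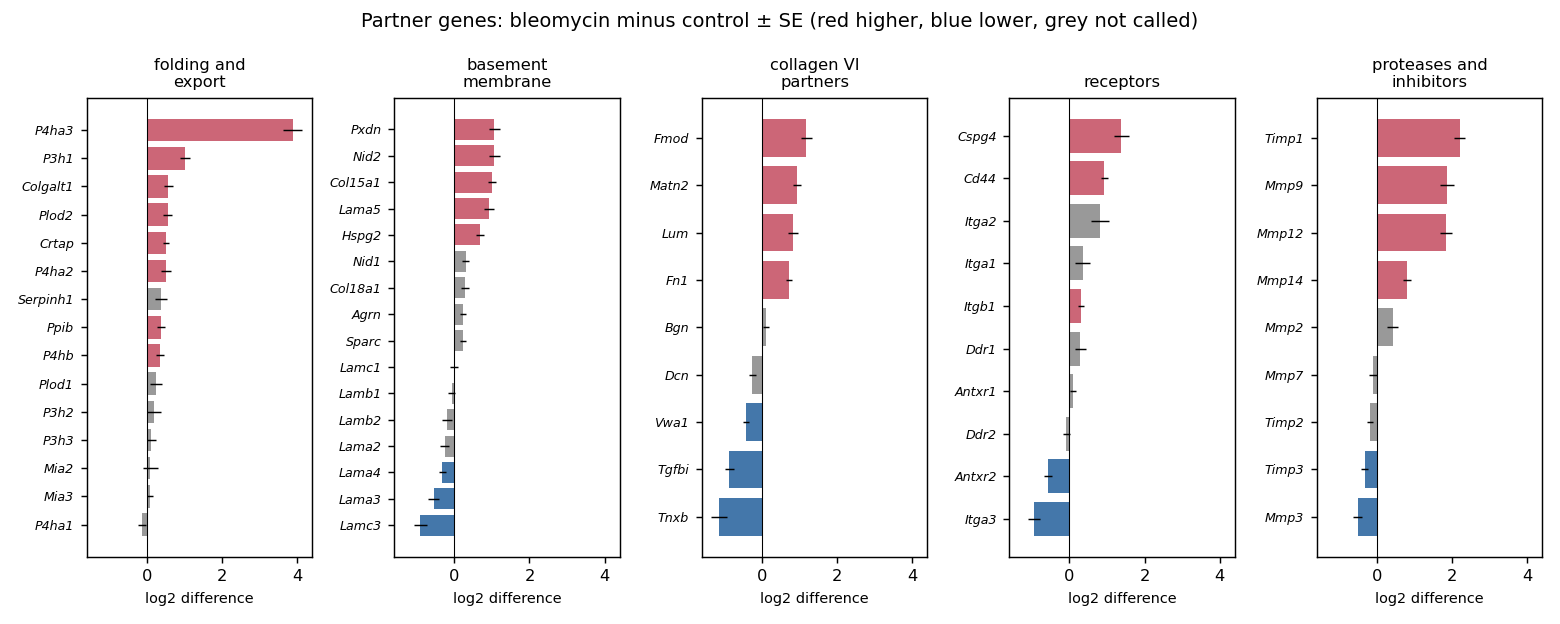
Log2 difference between bleomycin and control arrays (horizontal axis, bars with SE) for the 59 measured partner genes in 5 lists, red where called higher, blue where called lower and grey where not called. P4ha3 stands far above the rest at 3.88, and each list but the first, of folding and export, holds genes called in both directions.

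The labelled cell type was checked against the mesenchymal markers Col1a1, Col1a2, Col3a1, Pdgfra, Pdgfrb, Dcn and Vim. These had control means of 10.21 to 12.86, and 4 of the 7 rose and 1, Pdgfra, fell. Of the gate's own genes Ptprc, Pecam1 and Epcam, 1, Pecam1, fell, from 9.87 to 8.56. Alveolar fibroblast markers fell in 7 of 8 cases and adventitial fibroblast markers in 3 of 7, with 1 rise. Mesothelial markers fell in 1 of 6. Over all genes 2022 were called higher and 1828 lower.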

How the data were processed

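RNA from 8 sorted samples, 4 control and 4 bleomycin, was measured on 1-colour arrays after labelling of 100 ng of total RNA. The authors deposited 1 value per row and array, taken here as log2 intensities because they run from 0.24 to 13.58. The table names no scale, and for background correction and normalization the method is not given in the sources at hand. Detection calls were not used. Array medians of the tested genes ranged over 0.071, and values were used as deposited.

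Of 41345 rows, 23521 had 1 gene in the platform annotation, 1814 several and 16010 none. The brightest single-gene row of each of 22180 genes was fitted in R 4.3.3 by limma 3.58.1 (lmFit, then eBayes). P-values are two-sided and Benjamini-Hochberg adjusted over all genes, at 0.05. On simulated data with 200 changed genes among the 22180, 55.2% of the 1.5-fold changes were recovered, and for changes of 2-fold and 4-fold the shares were 94% and 97%. In the real data 17.4% of genes were called, a far larger share than was changed here. The adjustment depends on that share, so these recoveries need not hold for the real fit. Intervals are 95%, and those of within-array differences come from limma. Arrays give no read depth, and precision is limited by their number and, for dim genes, by the signal over background. Figures used matplotlib 3.10.9.

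Members and lists were chosen with earlier results of these data known. Lists were written from general knowledge, and 59 of 62 partner genes were measured. From each partner list the text names at most 3 passing genes, by size of change, in the direction most of them took, and 2 in the other. Serpinh1, Lama4, Lama5, Lamb1, Lamc1, Itga1, Itga2, Mmp2, Pdpn, Col6a4 and Col6a5 are named outside this rule, chosen after their values were seen. So are Myh11, Synpo2, Abcc9 and Higd1b. Alternatives were centring on array medians, quantile normalization, filters on the dimmest 30% or 50%, other rows per gene, trended robust eBayes, array weights, blocks, subsets of replicates and each array left out.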

Additional observations from a re-analysis of the deposited data

Results flagged for a closer look

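Col4a3 on bleomycin replicate 3, at 4.79, stood far below the other 3 bleomycin arrays for its group's range (its gap to the next array was 0.873 of the range, above Dixon's 95% limit for 4 samples). It was the 1 such value among 20 groups of 4 arrays examined, 2 for each of 10 genes, and chance alone gives about 1 in 20.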

How the results depend on the processing

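Over the 21 alternatives, or 20 for Col4a4, which the filter on the dimmer 50% of genes removes, Col4a1 and Col4a2 each lost the call in 1, Col4a3 in 4, Col4a4 in 3, Col6a2 in 11 and Col6a3 in 9, and Col4a6 and Col6a1 were called in none. These 8 genes kept their direction throughout. The sign turned for Col4a5 within replicates 1 and 2 (-0.0494) and for Col6a6 with median centring (-0.0318) and within replicates 3 and 4 (-0.0563). With 1 array left out Col4a5 ranged from -0.0651 to 0.221 and Col6a6 from -0.027 to 0.0541. With the row of largest variance, Col6a1 shifted against Col6a2 by 0.049 and against Col6a3 by 0.0384. Of 4 higher and 2 lower members, 2 higher passed with median centring, 1 and 1 within replicates 1 and 2, 1 and 0 within replicates 3 and 4, 2 and 0 without control replicates 1 and 2, and 1 lower without the dimmer 50% of genes. With 1 array left out 2 to 4 were higher and 1 to 2 lower. Partner genes, 24 higher and 10 lower, became 6 lower within replicates 1 and 2, 10 higher and 0 lower within replicates 3 and 4, and 4 lower without control replicates 1 and 2. Over all genes these subsets gave 838 higher and 833 lower, 503 and 220, and 1205 and 992. Fewer arrays enter these fits. For the 23 named partner genes 437 of 482 alternative fits kept the call, 45 lost it and 0 reversed.

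The share of higher calls moved with the scaling: quantile normalization gave 2567 higher and 1589 lower genes and median centring 1623 and 2314. The labels do not say whether replicate numbers pair the samples. Deviations of same-numbered arrays correlated weakly (0.129, 0.0631, 0.114 and 0.0647 for numbers 1 to 4), which does not settle it. Of the 4 controls 2 correlated best with their own number. Controls 1 and 2 correlated best with bleomycin replicate 1, and controls 3 and 4 with bleomycin replicate 3. The replicate block gave 1937 higher and 1838 lower genes, kept all calls of members and ended that of Itgb1 (limma adjusted p = 0.0522). With limma on within-array differences, a fit added after seeing the data, the replicate block called 3 pairs, against 2 without it. Replicates 1 and 2 against 3 and 4 as a block gave 2293 higher and 2168 lower genes, with 4 members higher and 2 lower. Exact permutation tests of the pairs with 1 array left out called 0 of 8 each time, and Col6a2 against Col6a3 ranged from -0.0545 to 0.0274. With 2 controls left out such a test cannot reach 0.05 and was not read.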
